A study of Mus musculus with 2 samples.

Results

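The genes described here encode the Sm and LSm proteins, the specific proteins of the U1 and U2 particles and the SMN complex. They were chosen by symbol, and all 33 symbols were found among the 30905 genes of both deposited matrices. By role, 8 encode Sm core proteins, 5 encode U1 or U2 proteins, 11 encode LSm proteins and 9 encode components of the SMN complex. They were measured by droplet single-cell RNA sequencing (10x Genomics 3′ chemistry V3.1) in CD3+ T cells sorted by FACS from spleens of C57BL/6 mice. The CKO group, with Prmt5 floxed and deleted by CD4-Cre, and the control group were 1 library each. The design text gives 3 mice a group, pooled without a map of cells to mice. The genotype field of both samples reads CD4-Cre+ PRMT5fl/fl, so the groups were taken from the titles, which name a CKO (CRE) and a control (WT) sample. CD4-Cre is active from the thymus on in αβ T cells, CD8 cells included, and is not expected to act in B cells. The animals' age and sex are not given in the sources used here.

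Sm proteins form a ring of 7 different subunits around the small nuclear RNAs of the spliceosome, and LSm proteins form related rings on U6 RNA and on messenger RNAs that are to be decapped. The SMN complex loads the Sm ring onto each small nuclear RNA in the cytoplasm. PRMT5, the enzyme whose gene is targeted in CKO T cells, places symmetric dimethylation on arginines in the tails of SmB, SmD1, SmD3 and LSm4. The Tudor domain of SMN binds the methylated tails. Activated T cells are known to enlarge their splicing machinery as they start to divide. The data here are transcript levels of these genes, not protein levels or methylation.

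The CKO library held 7896 cell barcodes and 52387620 unique molecular identifiers (UMIs, each a tagged transcript molecule), and the control library held 7407 barcodes and 48273424 UMIs. After the filter on cells, 7565 CKO and 6618 control T cells remained, with 51339837 and 46702934 UMIs. All 5 T cell markers (Cd3e, Cd3d, Cd3g, Trac and Trbc2) were detected, with a summed level of 5795 CPM (counts per 1000000 UMIs) in CKO and 5687 CPM in control cells. Both libraries held cells with Y-linked UMIs and cells with Xist UMIs, so both held cells of both sexes. Prmt5 had 250 UMIs in CKO and 702 UMIs in control T cells, or 4.87 and 15.03 CPM. The ratio of CKO over control was 0.324, with a 95% counting interval of 0.279 to 0.375. The deleted exon is not given in the sources used here, and UMIs from the 3′ end outside it do not measure the deletion itself. With 1 library per group there is no test between groups. Effects of genotype and of library preparation cannot be told apart, and every interval below covers counting error only. In whole-class sums, fewer molecules of a transcript in each cell and fewer cells that hold it cannot be told apart.

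Promoter sequences are given first for 4 of the genes, which were picked after their values had been seen. Among the 31 genes past the minimum level given below, Gemin2 had the highest ratio of CKO over control in all T cells and Gemin8 the lowest. Snrpa was higher in CKO cells of both naive lineages, and Snrnp70 was nearly level in CPM between the libraries and between dividing and naive cells. The sequences come from RefSeq, build GRCm38.p6, and end at the base before the transcript start. Capitals mark a GC box (GGGCGG, or CCGCCC on the other strand) in Gemin2, an ETS motif (CCGGAAG) in Gemin8, E-boxes (CACGTG, the letters bound by Myc and related factors) in Snrpa, and the NRF1 core (GCGCATGCG or its reverse complement CGCATGCGC) in Snrnp70. Gemin2 lies at chr12:59013271-59013390 on the plus strand, Gemin8 at chrX:166170334-166170453 on the plus strand, Snrpa at chr7:27196272-27196391 on the minus strand and Snrnp70 at chr7:45395743-45395882 on the minus strand.
Gemin2: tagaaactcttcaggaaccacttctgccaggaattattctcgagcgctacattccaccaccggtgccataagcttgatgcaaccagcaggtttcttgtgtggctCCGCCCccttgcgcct
Gemin8: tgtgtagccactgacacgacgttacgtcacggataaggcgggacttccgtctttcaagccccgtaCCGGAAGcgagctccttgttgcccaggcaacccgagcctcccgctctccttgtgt
Snrpa: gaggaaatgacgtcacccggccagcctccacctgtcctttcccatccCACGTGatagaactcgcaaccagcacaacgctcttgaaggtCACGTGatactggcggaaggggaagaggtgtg
Snrnp70: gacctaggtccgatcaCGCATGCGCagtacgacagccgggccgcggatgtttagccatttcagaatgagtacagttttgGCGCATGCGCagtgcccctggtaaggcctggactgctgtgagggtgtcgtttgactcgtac

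The 2 E-boxes of Snrpa begin 73 and 32 bases before its start. In Snrnp70 the longer run of capitals holds both strands of the NRF1 core, which begin 61 and 60 bases before the start and overlap. A 300-base promoter window (250 bases before the start to 50 after it) was found for 28 of the 33 genes and for 17492 protein-coding genes in all. It was not found for Snrpb, Snrpd1, Lsm1, Lsm4 and Lsm12. On either strand, the ETS motif was in 7 of the 28 windows (25%) and in 11.9% of all windows, and the GC box was in 20 (71.4%) and in 46.3% of all. The NRF1 core was in 2 (7.14%, Snrnp70 and Lsm2) and in 2.41% of all, and the YY1 letters AAGATGGCG were in 1 (3.57%, Lsm7) and in 1.92% of all. Rarer among these genes than among all windows were the E-box, found in Snrpa alone (3.57% against 7.91%), the letters TATAAA, also found in Snrpa alone (3.57% against 13.3%), and CCAAT (32.1% against 39.2%). The median GC content was 56.8% in these windows and 56.3% in all. These letters describe the windows and say nothing of binding.

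Across all T cells the 33 genes together took 4125 CPM in CKO cells (95% interval 4108 to 4143) and 3853 CPM in control cells (3836 to 3871). The ratio was 1.07 (1.06 to 1.08), so the CKO sum was 7.1% higher in this pair of libraries. A minimum of 5 CPM on average and 50 UMIs over both libraries was passed by 31 of the 33 genes, all except Snrpn and Gemin4. Of the 31, 25 had a ratio above 1, where 61.5% of all 8284 genes tested did. The median log2 ratio was 0.12 over the 31 and 0.05 over all genes tested, and 21 of the 31 lay above the median of all genes. At least 25% higher in CKO cells was 1 of them (Gemin2), where 8.0% of all genes were, and 0 were at least 20% lower, where 3.15% of all genes were. The differences of single genes were thus small.

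**Figure D1:**
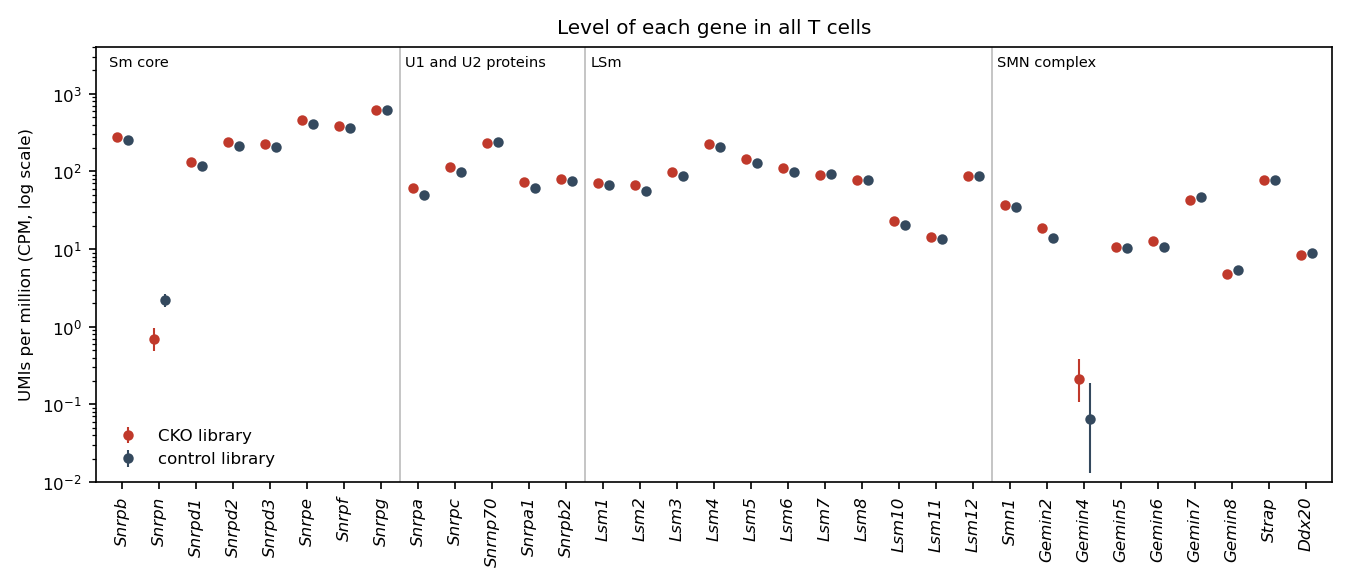
Level of each of the 33 genes in all T cells, in CPM on a log scale, with exact Poisson 95% intervals (counting error only); CKO points stand left of control points, and lines part the 4 roles. Levels run from 0.214 CPM (Gemin4) to 626 CPM (Snrpg) in the CKO library, and the CKO and control points of most genes lie close together, apart from Snrpn.

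The Sm core genes were the most abundant. Their summed level was 2344 CPM in CKO and 2190 CPM in control T cells, a ratio of 1.07 (1.06 to 1.08). All 7 that passed the minimum had a ratio above 1, where 61.5% of all genes did, with a median log2 ratio of 0.13. Of the 7, Snrpg was level, at a log2 ratio of 0.00. It was at -0.05 (-0.08 to -0.03) with mitochondrial, ribosomal and receptor genes left out of the totals. Levels are molecules counted at the 3′ end and are not divided by transcript length.

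Snrpb, which encodes SmB with a tail methylated by PRMT5, had 274 CPM in CKO and 251 CPM in control cells, a log2 ratio of 0.13 (0.09 to 0.16). Snrpd1 (SmD1, a methylated subunit) had 131 CPM in CKO and 119 CPM in control cells, a log2 ratio of 0.14 (0.09 to 0.19). Snrpd3 (SmD3, likewise methylated) had 223 CPM in CKO and 205 CPM in control cells, a log2 ratio of 0.12 (0.08 to 0.16). The genes of these 3 substrates were therefore slightly higher in CKO cells, by about as much as the core as a whole. Among subunits without such tails the ratios spanned a wider range. Snrpe (SmE) had 465 CPM in CKO and 409 CPM in control cells, a log2 ratio of 0.19 (0.16 to 0.21). Snrpg (SmG), the most abundant gene of the set, had 626 CPM in CKO and 625 CPM in control cells, a log2 ratio of 0.00 (-0.02 to 0.03). Snrpd2 and Snrpf lay between them, at log2 ratios of 0.16 and 0.08.

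Snrpn stood apart from the rest of the Sm core. It is an imprinted gene that encodes SmN, a relative of SmB made mainly in neurons. It had 36 UMIs in 31 CKO T cells and 103 UMIs in 90 control T cells, or 0.701 and 2.21 CPM. The log2 ratio was -1.65 (-2.24 to -1.09), and the gene was under the minimum level. Its molecules were unevenly spread over cell classes. In naive-like CD8 cells it had 3 UMIs in CKO and 45 UMIs in control cells, a ratio of 0.0857 (0.0170 to 0.267). In memory-like CD8 cells there was 1 UMI in CKO and 24 in control cells, where the CKO class was much smaller. In naive-like CD4 cells it had 5 UMIs in CKO and 15 in control cells, and in memory-like CD4 cells 5 UMIs in CKO and 3 in control cells. Cells with Y-linked UMIs had 10 Snrpn UMIs in CKO and 36 in control cells, and cells with Xist UMIs had 13 in CKO and 45 in control cells, so the lower level was seen in both sexes. The annotation places Snurf and Gm38393 on the same strand over Snrpn, and Snurf had 0 UMIs in either library, so how molecules of this locus were divided among the 3 names was not tested. Sm and LSm genes have many processed pseudogenes and close paralogs, and molecules lost to them were not tested either.

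The U1 and U2 proteins summed to 561 CPM in CKO and 525 CPM in control T cells, a ratio of 1.07 (1.05 to 1.09). Of these 5 genes, 4 had a ratio above 1, where 61.5% of all genes did. The median log2 ratio of 0.20 was the highest of the 4 roles. Snrpa, a U1 protein that binds a loop of U1 RNA, had 61.2 CPM in CKO and 50.5 CPM in control cells, a log2 ratio of 0.28 (0.20 to 0.36). Snrpa1, a U2 protein, had 73.8 CPM in CKO and 62.1 CPM in control cells, a log2 ratio of 0.25 (0.18 to 0.32). Snrpc, of U1, followed at 0.20, and Snrpb2, of U2, at 0.08. Snrnp70, the U1-70K protein, did not share this direction. It had 232 CPM in CKO and 238 CPM in control cells, a log2 ratio of -0.03 (-0.07 to 0.01).

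The LSm genes summed to 1008 CPM in CKO and 931 CPM in control T cells, a ratio of 1.08 (1.07 to 1.10). Of these 11 genes, 9 had a ratio above 1, where 61.5% of all genes did. The median log2 ratio was 0.14. Lsm4, whose protein has an arginine-rich tail methylated by PRMT5, had 226 CPM in CKO and 206 CPM in control cells, a log2 ratio of 0.14 (0.10 to 0.18). Lsm2, a subunit of both LSm rings, had 66.8 CPM in CKO and 56.8 CPM in control cells, a log2 ratio of 0.23 (0.16 to 0.31). Lsm7, also in both rings, had 90.8 CPM in CKO and 92.2 CPM in control cells, a log2 ratio of -0.02 (-0.08 to 0.04). The subunits that tell the rings apart gave 70.6 CPM in CKO and 66.0 CPM in control cells for Lsm1 (cytoplasmic decapping ring) and 76.4 CPM in CKO and 76.9 CPM in control cells for Lsm8 (nuclear U6 ring). Lsm10 and Lsm11, of the U7 particle that processes histone messages, had log2 ratios of 0.17 (0.04 to 0.29) and 0.07 (-0.09 to 0.23).

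The SMN complex genes were the least abundant, and their ratios lay on both sides of 1. They summed to 213 CPM in CKO and 208 CPM in control T cells, a ratio of 1.02 (0.994 to 1.05), with an interval that includes 1. Of the 8 that passed the minimum, 5 had a ratio above 1, near the 61.5% of all genes. The median log2 ratio was 0.03, also close to that of all genes. Both the highest and the 3 lowest log2 ratios of the 31 genes were in this complex.

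Smn1, the scaffold that binds methylated Sm tails, had 37.3 CPM in CKO and 34.6 CPM in control cells, a log2 ratio of 0.11 (0.01 to 0.20). Gemin2, which holds the partly built Sm ring, had 18.4 CPM in CKO and 14.0 CPM in control cells, a log2 ratio of 0.39 (0.25 to 0.54). It was seen in 849 of 7565 CKO and 586 of 6618 control T cells, with at most 5 UMIs in a cell. Gemin6, a Sm-fold protein of the complex, had 12.7 CPM in CKO and 10.7 CPM in control cells, a log2 ratio of 0.25 (0.07 to 0.42). Its binding partner Gemin7 went the other way, with 43.1 CPM in CKO and 47.2 CPM in control cells, a log2 ratio of -0.13 (-0.22 to -0.05). Gemin8, which ties the pair to SMN and is X-linked, had 4.79 CPM in CKO and 5.42 CPM in control cells, a log2 ratio of -0.18 (-0.44 to 0.08). Ddx20, the helicase also called Gemin3, had 8.32 CPM in CKO and 8.89 CPM in control cells, a log2 ratio of -0.10 (-0.29 to 0.10). Gemin5, which recognises small nuclear RNAs, and Strap differed little, at log2 ratios of 0.05 and 0.00. Gemin4 was nearly undetected, with 11 UMIs in CKO and 3 UMIs in control cells, a ratio of 3.34 (0.881 to 18.6), and it overlaps Glod4 on the same strand.

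The 2 main naive lineages were then compared separately, which holds the named cell class fixed. It does not hold fixed the clusters inside the naive-like CD4 class, whose sizes are given below. Naive-like CD4 cells numbered 4127 in CKO and 2953 in control, and the 33 genes summed to 3810 CPM in CKO (3786 to 3835) and 3586 CPM in control cells (3558 to 3615), a ratio of 1.06 (1.05 to 1.07). Of the 30 genes past the minimum, 23 had a ratio above 1, where 58.4% of all genes did, and the median log2 ratio was 0.10, against 0.04 for all genes. At least 25% higher was 1 gene (Snrpa), where 10.1% of all genes were, and 0 were at least 20% lower, where 4.39% were. Naive-like CD8 cells numbered 1304 in CKO and 1627 in control, and the sum was 4106 CPM in CKO (4065 to 4147) and 3762 CPM in control cells (3727 to 3796), a ratio of 1.09 (1.08 to 1.11). Of the 30 genes past the minimum there, 27 had a ratio above 1, where 61.7% of all genes did, and the median log2 ratio was 0.15, against 0.07. In CD8 cells 4 of the 30 were at least 25% higher (Gemin2, Snrpa, Snrpa1 and Gemin5), where 14.5% of all genes were, and 0 were at least 20% lower, where 6.16% were.

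Snrpa was the gene at least 25% higher in both lineages. It had 54.2 CPM in CKO and 43.3 CPM in control naive-like CD4 cells (log2 ratio 0.32, 0.19 to 0.46), and 56.2 CPM in CKO and 44.6 CPM in control naive-like CD8 cells (0.34, 0.16 to 0.51). Snrpa1 reached 70.8 CPM in CKO and 55.1 CPM in control naive-like CD8 cells, a log2 ratio of 0.36 (0.20 to 0.52). Gemin5 had 10.7 CPM in CKO and 8.41 CPM in control naive-like CD8 cells, a log2 ratio of 0.35 whose interval (-0.06 to 0.76) includes 0. It rested on 101 UMIs in CKO and 102 UMIs in control cells.

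Gemin2 differed more in CD8 than in CD4 naive-like cells, although that difference was not tested. In naive-like CD8 cells it had 20.1 CPM in CKO and 12.1 CPM in control cells, a log2 ratio of 0.73 (0.41 to 1.05). In naive-like CD4 cells it had 16.1 CPM in CKO and 14.0 CPM in control cells, a log2 ratio of 0.21 (-0.03 to 0.44). The 4 clusters that make up the naive-like CD4 class gave log2 ratios for Gemin2 of -0.13 (-1.05 to 0.96), 0.30 (-0.21 to 0.82), -0.28 (-0.68 to 0.11) and 0.91 (0.37 to 1.46). Of these 4 intervals, the last excludes 0.

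**Figure D2:**
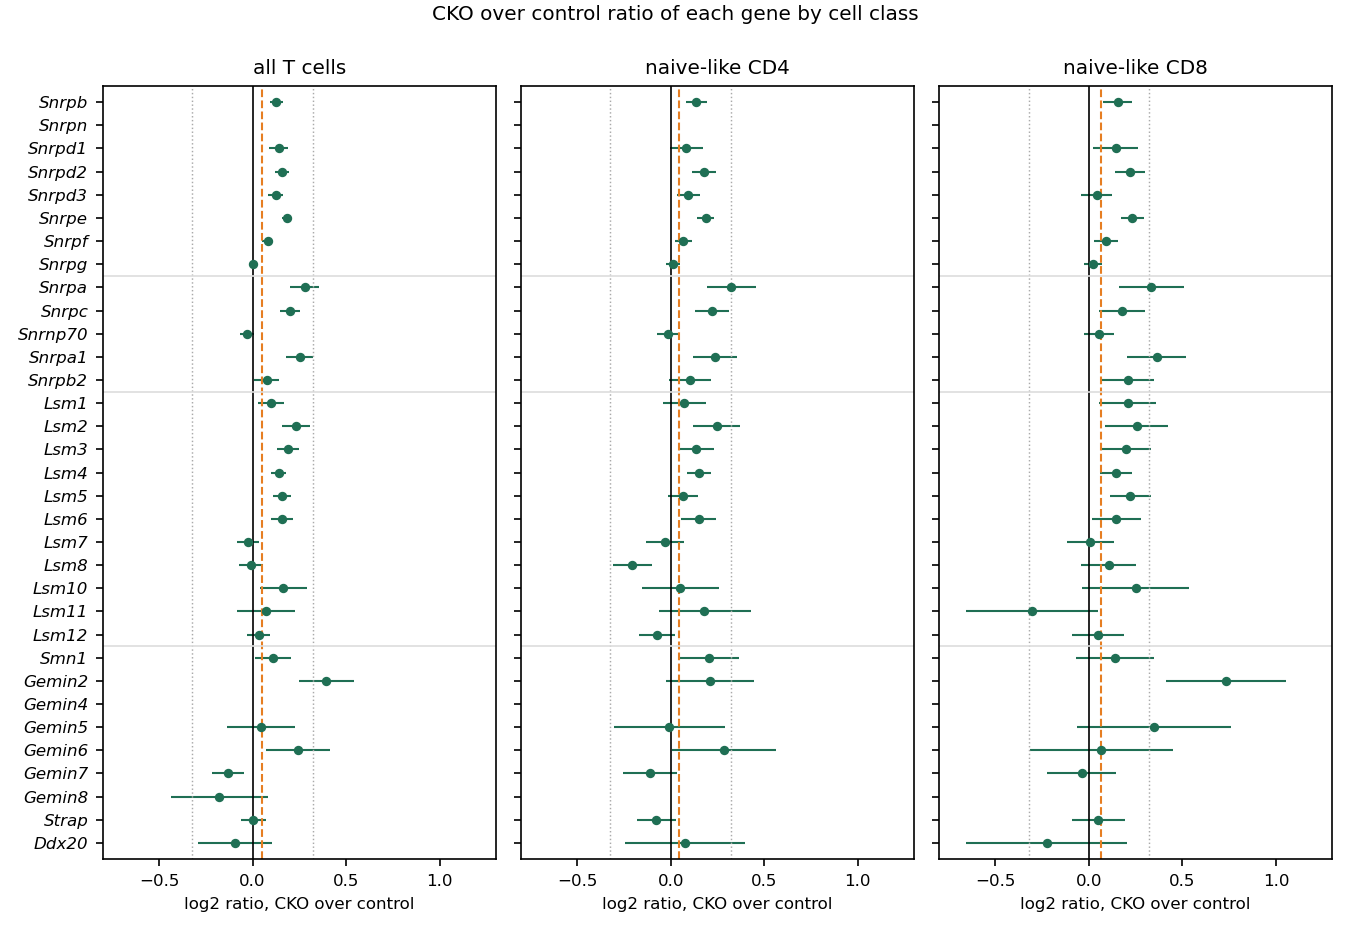
Log2 ratio of CKO over control for each gene in all T cells, naive-like CD4 and naive-like CD8 cells, with 95% counting intervals; the solid line is 0, the dashed line the median of all genes tested, and dotted lines mark 25% higher and 20% lower. Genes under the minimum level have no point; most points lie to the right of 0, Snrpa lies at the dotted line in the naive panels and Gemin2 reaches 0.73 in naive-like CD8 cells.

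Clusters of the naive-like CD4 class differed between libraries in size. A cluster led by Pdlim4, Ly6c1 and Igsf23 held 1279 CKO and 86 control cells, whereas the other 3 were of similar size in both. In that cluster the summed level was 3709 CPM in CKO and 3405 CPM in control cells, a ratio of 1.09 (1.04 to 1.14). In the cluster led by A530021J07Rik, Cldn10 and Itih5 it was 3764 CPM in CKO and 3509 CPM in control cells, a ratio of 1.07 (1.05 to 1.10). In the cluster led by Acvrl1, Igfbp4 and Cd40lg it was 4152 CPM in CKO and 3741 CPM in control cells, a ratio of 1.11 (1.09 to 1.13). In the cluster led by St8sia6, Lgmn and Myo6 it was 3495 CPM in CKO and 3450 CPM in control cells, a ratio of 1.01 (0.991 to 1.04). All 4 sums were higher in CKO cells, and the interval of the last includes 1.

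The summed level varied more between cell classes than between libraries. It was highest in proliferating-like cells, with 6413 CPM in CKO and 6493 CPM in control cells (ratio 0.988, 0.963 to 1.01), and 14 of 29 genes had a ratio above 1, where 52.4% of all genes did. Next came the Tnfrsf9 clusters, here a single cluster led by Eomes, Pou2af1, Xcl1 and Tnfrsf9, with 5796 CPM in CKO and 5457 CPM in control cells (ratio 1.06, 1.04 to 1.09), and there 18 of 29 genes had a ratio above 1, where 46.0% of all genes did. In the remaining named T cell classes the sum lay between 3653 and 4106 CPM in CKO and between 3518 and 3920 CPM in control cells. Ratios were 1.05 (1.02 to 1.07) in Treg-like, 1.11 (1.06 to 1.16) in memory-like CD8, 1.08 (1.01 to 1.15) in effector-like CD8, 1.07 (1.03 to 1.10) in interferon-responding-like and 1.04 (1.004 to 1.07) in memory-like CD4 cells. Genes with a ratio above 1 were 22 of 30 past the minimum in Treg-like (51.3% of all genes), 20 of 26 in memory-like CD8 (58.6%), 15 of 25 in effector-like CD8 (49.7%), 22 of 28 in interferon-responding-like (58.8%) and 17 of 27 in memory-like CD4 cells (50.6%). The last class was held by different clusters, since 88 of its 168 CKO cells but 25 of its 366 control cells lay in a cluster led by Il22, Ltb4r1 and S100a4. The intervals of γδ-like (1.02, 0.934 to 1.11) and NKT-like cells (0.975, 0.861 to 1.10) include 1, from 102 CKO and 17 control γδ-like cells and 10 CKO and 108 control NKT-like cells. In these classes 15 of 24 genes (53.7% of all genes) and 9 of 23 genes (49.8%) had a ratio above 1. In Treg-like cells 2 genes were at least 25% higher (Lsm10 and Gemin2, 13.3% of all genes) and 2 at least 20% lower (Lsm11 and Gemin8, 14.3% of all genes), and of these only the interval of Gemin8 (6.36 CPM in CKO, 13.1 CPM in control, log2 ratio -1.04, -1.85 to -0.27) excludes 0.

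Clusters with Fcer1g, which carry NK receptor genes and stayed unnamed, were the T cell class whose sum was lower in CKO cells beyond counting error. It was 4006 CPM in CKO and 4178 CPM in control cells, a ratio of 0.959 (0.925 to 0.994), and 8 of the 25 genes past the minimum had a ratio above 1, where 52.9% of all genes did. Prmt5 had 21 UMIs in CKO and 10 UMIs in control cells there, or 10.2 and 8.96 CPM, counts too low to place its level. B-like cells carried over by the sort gave a sum of 3967 CPM in CKO and 3621 CPM in control cells. The ratio was 1.10 (1.03 to 1.17), from 72 CKO and 67 control cells. Of these cells 28.8% held Cd3e UMIs and 17.3% held Cd4 UMIs, and doublets were kept. The part of T cell molecules in this ratio was not tested. Prmt5 had 8 UMIs in CKO and 10 UMIs in control B-like cells, too few to place its level. Whether the ratio in B-like cells differs from that in T cells was not tested.

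**Figure D3:**
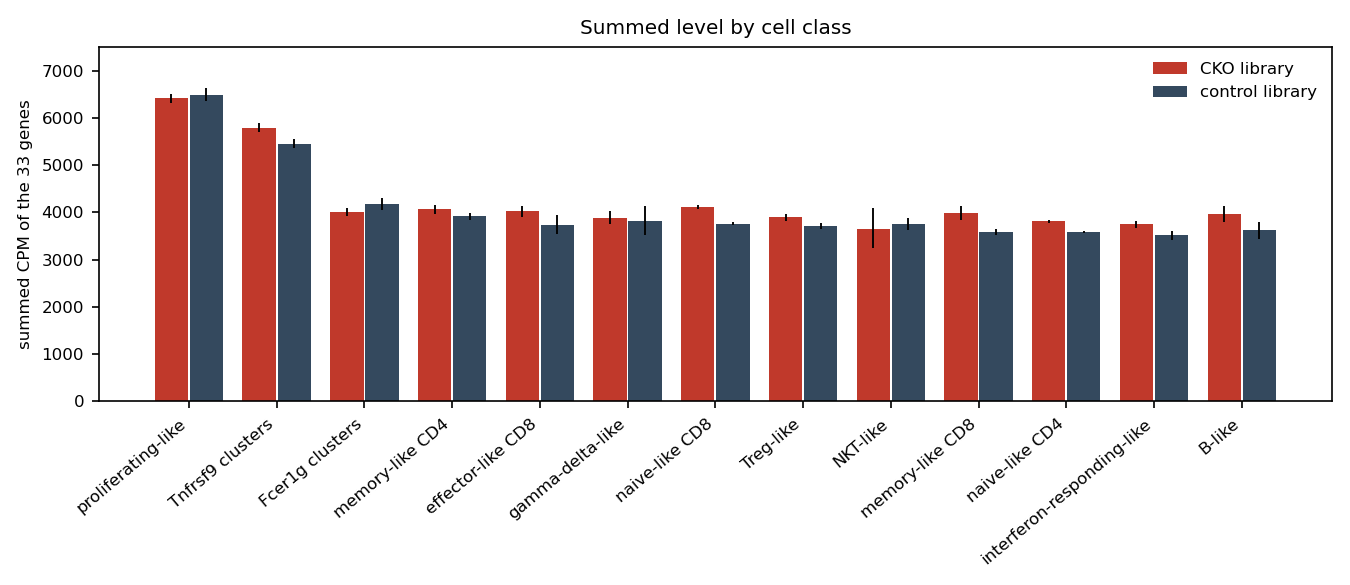
Summed level of the 33 genes by cell class in CPM, CKO bars left of control bars, with exact Poisson 95% intervals (counting error only). Proliferating-like cells and the Tnfrsf9 clusters lie between 5457 and 6493 CPM, and all other classes lie between 3518 and 4178 CPM.

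Other quantities moved with the difference between the libraries. Proliferating-like cells were 1.90% of CKO and 1.10% of control T cells, and the 10 proliferation markers, none of them at 0, summed to 1430 CPM in CKO and 1263 CPM in control T cells. In naive-like CD4 cells these markers summed to 727 CPM in CKO and 768 CPM in control cells, and the ratio of the 33 genes there was 1.06. The part of proliferation in the difference was not tested. Without proliferating-like cells and the Tnfrsf9 clusters the ratio over T cells was 1.06. Mitochondrial genes took 4.37% of UMIs in CKO and 5.17% in control T cells, and ribosomal protein genes 36.7% in CKO and 38.1% in control T cells. With these genes and the receptor genes left out of the totals, the ratio was 1.03 in all T cells, 1.04 in naive-like CD4 and 1.04 in naive-like CD8 cells. With those totals 21 of the 31 genes past the minimum had a ratio above 1 in all T cells, where 49.4% of all genes did and the median log2 ratio of all genes was -0.003. With full totals 25 of 31 had, where 61.5% of all genes did. The 7 B cell markers summed to 42.2 CPM in CKO and 27.9 CPM in control T cells, the 7 myeloid markers to 131 CPM in CKO and 102 CPM in control T cells and the 4 erythroid markers to 8.28 CPM in CKO and 1.18 CPM in control T cells, and their part in the result was not tested.

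Sex was examined because the libraries mix both. Among T cells with Y-linked UMIs (2197 CKO, 1654 control) the ratio of the sums was 1.05 (1.04 to 1.06), with 22 of 31 genes above 1 (56.8% of all genes). Among those with Xist UMIs (3275 CKO, 3190 control) it was 1.07 (1.06 to 1.08), with 25 of 31 genes above 1 (59.4% of all genes). Gemin2 had 18.7 CPM in CKO and 14.5 CPM in control cells with Y-linked UMIs, a log2 ratio of 0.36 (0.08 to 0.65). With Xist UMIs it had 17.2 CPM in CKO and 13.4 CPM in control cells, a log2 ratio of 0.36 (0.14 to 0.58). Gemin6 had 14.3 CPM in CKO and 10.9 CPM in control cells with Y-linked UMIs, a log2 ratio of 0.39 (0.06 to 0.72). With Xist UMIs it had 13.4 CPM in CKO and 11.0 CPM in control cells, a log2 ratio of 0.29 (0.05 to 0.53). X-linked Gemin8 had 5.23 CPM in CKO and 6.47 CPM in control cells with Y-linked UMIs, and 4.90 CPM in CKO and 5.23 CPM in control cells with Xist UMIs.

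How the genes vary between resting and dividing cells was measured inside each library, so that it does not rest on the comparison of the libraries. The proliferating-like cells mixed lineages, with Cd8b1 in 50.2% and Cd4 in 40.6% of cells. Set against naive-like CD4 cells, differences of lineage and of division cannot be told apart. Relative to naive-like CD4 cells, the summed level in proliferating-like cells was 1.68-fold (1.66 to 1.71) in CKO and 1.81-fold (1.77 to 1.85) in control. All 31 genes past the minimum had a ratio above 1 in both libraries, where 60.9% of all genes did in CKO and 60.9% in control. The median log2 ratio was 0.72 in CKO and 0.78 in control over the 31, against 0.18 in CKO and 0.20 in control over all genes. A difference of at least 1.5-fold was reached by 20 of 31 in CKO (27.7% of all genes) and by 23 of 31 in control (30% of all genes), and 0 were as much lower in either library, where 11.5% of all genes in CKO and 14.3% in control were. These values use full totals. Without mitochondrial, ribosomal and receptor genes in the totals the summed folds were 1.37 in CKO and 1.47 in control. Folds and counts of single genes, here and below, were not recomputed with those reduced totals. Proliferating-like cells were deep, with a median of 15696 UMIs in CKO and 19218 in control. After each cell of at least 2000 UMIs was thinned to 2000, the folds were 1.70 (1.62 to 1.78) in CKO and 1.66 (1.55 to 1.78) in control. The order of the libraries thus turned round, with intervals that overlap.

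Lsm2 differed most between dividing and naive cells. It had 190 CPM in proliferating-like and 56.5 CPM in naive-like CD4 cells of the CKO library, a ratio of 3.37 (3.03 to 3.74). In the control library it had 202 CPM in proliferating-like and 47.7 CPM in naive-like CD4 cells, a ratio of 4.23 (3.70 to 4.83). Snrpd1, of the Sm ring, had 327 CPM in proliferating-like and 106 CPM in naive-like CD4 cells in CKO (ratio 3.09, 2.85 to 3.34), and 352 and 100.1 CPM in the same classes in control (3.52, 3.19 to 3.88). Gemin8, with 18 UMIs in CKO and 22 UMIs in control proliferating-like cells, was 2.17-fold (1.23 to 3.66) in CKO and 3.79-fold (2.23 to 6.22) in control. Gemin6 was 2.75-fold (2.12 to 3.53) in CKO and 2.71-fold (1.88 to 3.83) in control. Lsm6 was 2.40-fold in CKO and 2.73-fold in control, and Lsm5 2.34-fold in CKO and 2.48-fold in control. At the other end, with full totals, Snrnp70 was level, at 1.02-fold (0.935 to 1.11) in CKO and 1.05-fold (0.944 to 1.17) in control. Lsm10 was 1.01-fold (0.739 to 1.35) in CKO and 1.19-fold (0.814 to 1.69) in control. Smn1 was 1.18-fold (0.956 to 1.45) in CKO and 1.11-fold (0.815 to 1.47) in control. Snrpd3, although a subunit of the same ring as Snrpd1, was 1.13-fold (1.04 to 1.23) in CKO and 1.13-fold (1.01 to 1.26) in control. Transcripts of the Sm ring were thus not raised in step.

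**Figure D4:**
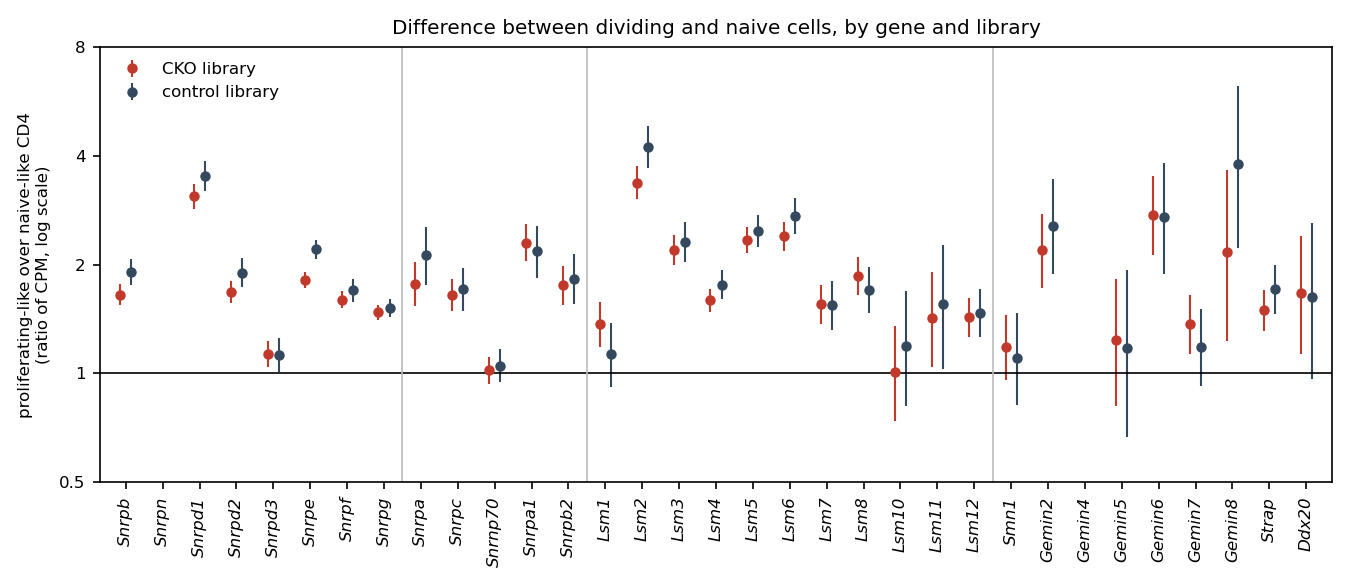
Ratio of the level in proliferating-like cells to that in naive-like CD4 cells for each gene, on a log scale, with 95% counting intervals; CKO points stand left of control points. Lsm2 and Snrpd1 lie above 3 in both libraries, while Snrnp70 and Snrpd3 lie at 1.02 to 1.13. Lsm10 lies at 1.01 in CKO and 1.19 in control. Snrpn and Gemin4, under the minimum level, have no point.

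The Tnfrsf9 clusters, which also mixed lineages (Cd8b1 in 41.7% and Cd4 in 38.1% of cells), had a partly different profile. Their summed level was 1.52-fold that of naive-like CD4 cells in CKO (1.496 to 1.55) and 1.52-fold in control (1.49 to 1.55). At least 1.5-fold was reached by 16 of 30 genes in CKO (17.6% of all genes) and 18 of 31 in control (20.9% of all genes), and 0 were as much lower, where 12.5% of all genes in CKO and 8.60% in control were. A ratio above 1 was seen for 29 of 30 genes in CKO (52.7% of all genes) and 30 of 31 in control (61.1% of all genes). Snrpd1 was again among the highest, 2.62-fold (2.42 to 2.84) in CKO and 2.42-fold (2.18 to 2.68) in control. Snrpa1 was 2.56-fold (2.296 to 2.85) in CKO and 2.60-fold (2.26 to 2.98) in control. Gemin5 was 2.53-fold (1.90 to 3.35) in CKO and 2.56-fold (1.82 to 3.54) in control, whereas in proliferating-like cells it was 1.24-fold (0.811 to 1.83) in CKO and 1.17-fold (0.667 to 1.93) in control. Smn1 was 1.66-fold (1.39 to 1.96) in CKO and 2.16-fold (1.77 to 2.61) in control. Gemin2 showed the opposite order of classes. It was 1.01-fold (0.722 to 1.37) in CKO and 1.20-fold (0.813 to 1.72) in control Tnfrsf9 clusters, and 2.19-fold (1.72 to 2.77) in CKO and 2.56-fold (1.88 to 3.45) in control proliferating-like cells.

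Genes that work beside these proteins were counted in all T cells from lists chosen with earlier results of these data known. The counts and shares are therefore descriptive. Of 24 tested genes for other proteins of the U2, U4/U6 and U5 particles, 24 had a ratio above 1 (61.5% of all genes) and 5 were at least 25% higher in CKO (8.0% of all genes), with a median log2 ratio of 0.17. Prpf3, a U4/U6 protein, had 26.6 CPM in CKO and 12.7 CPM in control cells, a log2 ratio of 1.07 (0.93 to 1.21). Snrnp200, the U5 helicase, had 69.98 CPM in CKO and 43.8 CPM in control cells, a log2 ratio of 0.68 (0.60 to 0.75). Prpf8, the central U5 protein, had 82.5 CPM in CKO and 59.4 CPM in control cells, a log2 ratio of 0.47 (0.40 to 0.54), and Txnl4a was 0.40 higher on the log2 scale. Of the 31 Sm, LSm and SMN complex genes past the minimum, Gemin2 had the highest log2 ratio, 0.39 (0.25 to 0.54), and its interval includes the ratios of Txnl4a and Prpf8.

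Of 13 tested genes of snRNP export, capping and import, 8 had a ratio above 1, near the 61.5% of all genes, and 2 were at least 25% higher (8.0% of all genes), with a median of 0.03 against 0.05 for all genes. These were Ncbp2, a cap-binding subunit (31.2 CPM in CKO and 24.6 CPM in control cells), and Usb1, a U6 processing enzyme (10.5 CPM in CKO and 8.39 CPM in control cells). Against the same shares, in the minor spliceosome list 7 of 8 genes had a ratio above 1 (median 0.13), and in the U7 and histone message list 6 of 6 (median 0.10), with 0 at least 25% higher or 20% lower in either. Among the decapping partners of the cytoplasmic LSm ring, 4 of 8 had a ratio above 1 (median -0.02). Among the arginine methyltransferases and their partners, Prmt5 included, 5 of 11 had a ratio above 1, with a median of -0.07, and Prmt5 alone was at least 20% lower, as 3.15% of all genes were. Prmt3 had 24.6 CPM in CKO and 30.5 CPM in control cells, a log2 ratio of -0.31 (-0.42 to -0.20). Riok1, a PRMT5 adaptor, had 80.3 CPM in CKO and 70.5 CPM in control cells, a log2 ratio of 0.19 (0.12 to 0.26).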

How the data were processed

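The authors deposited counts, as whole numbers of UMIs per gene and cell barcode, for 2 libraries. Cell Ranger 3.1.0 made them, per the file headers. CASAVA 1.8, Seurat 2.3.4 and build mm10 appear, with no step, per the submitters' processing notes. Gene positions came from GENCODE vM21. Here, barcodes were kept that had 500 or more genes and less than 10% of UMIs from mitochondrial genes (7660 CKO, 6712 control). The libraries shared 11 barcodes. Scrublet in scanpy 1.11.5 called 0 doublets in either library, too few at this number of cells for its calls to be used, so doublets were kept and leaving out the highest 6% of scores was an alternative.

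Cells were clustered on 2000 variable genes, 30 components and 15 neighbours at Leiden resolution 1. Receptor, mitochondrial and ribosomal genes were left out, as were the genes described here, 0 of which were among the variable genes anyway. Clusters that mixed CD8 with Fcer1g cells, or CD4 memory with Zbtb16 cells, were clustered again with 15 components at resolution 0.8. They were picked by marker percentages. The memory-like CD4, memory-like CD8, NKT-like and Fcer1g classes came from that step. Names came from the percentage of cells per cluster that held a marker's UMI, with limits set after the clusters were seen: Cd79a 50 for B-like, Mki67 50 for proliferating-like, Foxp3 40 for Treg-like, Cd8b1 60 for CD8 and Cd4 30 for CD4, which were naive-like unless Gzma, Ly6c2, Il2rb or Cd44 passed theirs. T cells here exclude the B-like and myeloid-like clusters. No NK-like, plasma, dendritic, neutrophil, erythroid, platelet or stromal class was named.

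For each class, a library's UMIs were summed by gene and divided by all UMIs of the sum (CPM), with exact Poisson intervals; ratios carry exact conditional binomial intervals, all at 95%. Both cover counting error only. With 1 library per group no test was made, and genes were counted as higher by 25% or lower by 20% (the same fold) among those with a mean of 5 CPM and 50 UMIs over both libraries. The computation was tested on simulated counts. Genes named in full were those past that fold in all T cells or a naive-like class, the 5 highest and 5 lowest in all T cells, the genes of methylated proteins, Smn1, and up to 4 per neighbouring list; other values were added afterwards. The members, lists and alternatives were chosen with earlier results of these data known.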

Additional observations from a re-analysis of the deposited data

Results flagged for a closer look

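Lsm8 pointed in opposite directions in the naive lineages. Its log2 ratio of CKO over control was 0.11 (-0.04 to 0.25) in naive-like CD8 cells, with 75.0 CPM in CKO and 69.6 CPM in control cells. In naive-like CD4 cells it was -0.20 (-0.31 to -0.10), with 69.4 CPM in CKO and 79.9 CPM in control cells. The difference between the lineages was not tested.

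The sum of all 33 genes pointed in opposite directions in the Fcer1g clusters, with a log2 ratio of -0.061 (-0.11 to -0.01), and in naive-like CD4 cells, with 0.087 (0.07 to 0.10). This difference was not tested either, since each rests on the same 2 libraries.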

How the results depend on the processing

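The ratio of the summed genes stayed above 1 in all T cells, naive-like CD4 and naive-like CD8 cells under every alternative run. In all T cells it was 1.07 as reported. It was 1.04 under a stricter cell filter (1000 or more genes, less than 5% mitochondrial), with 5637 CKO and 3061 control cells. It was 1.036 scaled to the median gene, 1.031 without mitochondrial, ribosomal and receptor genes in the totals, and 1.048 in cells with Y-linked UMIs. With class makeup held equal it was 1.062, and without proliferating-like and Tnfrsf9 clusters 1.059. B-like cells are not among the T cells, and their own ratio, added after seeing the data, was 1.096. In naive-like CD4 cells it was 1.079 with UMI gates, 1.031 scaled to the median gene, 1.036 with the reduced totals and 1.075 without the cluster held mostly by CKO cells, added after seeing the data. In naive-like CD8 cells it was 1.042 scaled to the median gene, 1.045 with the reduced totals and 1.065 in cells with Xist UMIs.

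For proliferating-like over naive-like CD4 cells, CKO gave 1.374 with the reduced totals, 1.818 in cells with Y-linked UMIs and 1.638 in cells with Xist UMIs. Control gave 1.468 with the reduced totals and 1.66 after thinning to 2000 UMIs. The number of genes at least 25% higher in all T cells was 0 under the stricter cell filter, where Gemin2 was at 0.31 on the log2 scale, 2 in cells with Y-linked UMIs, 2 with no minimum level and 0 at 1.5-fold. With no minimum level Gemin4 was added to the higher genes, on 11 UMIs in CKO and 3 UMIs in control cells. The number lower was 1 with no minimum level, namely Snrpn. The share of all genes past the fold was not computed under these alternatives, so these counts describe the processing only. The causes were not tested.

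Gemin7, Gemin8, Ddx20, Snrnp70 and Snrpn were below 0 under all alternatives for single genes, and Gemin2 was between 0.31 and 0.43. Snrpg, Lsm7, Lsm8, Lsm12, Strap, Snrpb2 and Gemin5 changed sign under at least 1. No paired analysis was possible because each group is 1 library, and none could be left out. Depth limits Gemin4, Snrpn and the small classes most.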
